A study of Homo sapiens with 15 samples.

Results

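Cholesterol and fatty acid synthesis genes and the LXR cholesterol efflux genes were examined in clear cell renal cell carcinoma (ccRCC) cells with and without ANGPTL4. The 40 genes were chosen by symbol from a list, and all 40 were present among the 16296 genes measured in CAKi-1 and among the 16188 genes measured in 786O. They fall into a sterol arm of 21 genes, a fatty acid arm of 13 genes, 1 gene of cholesterol esterification (SOAT1) and 5 LXR efflux genes (ABCA1, ABCG1, MYLIP, NR1H2 and NR1H3).

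ANGPTL4 encodes a secreted inhibitor of lipoprotein lipase, and the series asked how its loss changes the transcriptome of 2 human ccRCC lines. VHL, the tumour suppressor lost in most ccRCC, is intact in CAKi-1 and mutant in 786O. CRISPR knockout cells (A4KO) and wild type cells (WT) were grown to log phase, and polyadenylated RNA was sequenced from 4 WT and 5 A4KO replicates of CAKi-1 and from 3 WT and 3 A4KO replicates of 786O. Each value is a gene level in TPM, a length-corrected share of the transcripts of a library, and the values of a library summed to between 961437 and 973887. The labels state 3000000 reads per sample, and TPM does not hold the number of reads behind a value. Each A4KO line is a mixture of selected single-cell clones. The 786O WT line is also a mixture of clones that kept ANGPTL4 expression. For CAKi-1 WT the sources differ: the series text describes combined clones without loss, while the study's methods state that no such clone was found and that WT means the parental line. If so, clone selection and knockout cannot be told apart in CAKi-1, and in 786O the groups hold different clones. The medium was RPMI per the sample descriptions and DMEM for all cells per the study's methods. Nothing states that replicates came from separate cultures, so the p-values measure the spread between libraries, which may be technical.

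Cells make cholesterol from acetyl-CoA through mevalonate, squalene and lanosterol, and SREBP2, the product of SREBF2, activates the genes of this route when membranes run low in sterol. SREBP1, the product of SREBF1, drives mainly fatty acid synthesis, while INSIG1 holds both factors in the endoplasmic reticulum when sterol is plentiful. Oxysterols made from excess cholesterol activate the LXR receptors, which induce the exporters ABCA1 and ABCG1 as well as SREBF1, and ccRCC is known for cells filled with lipid and cholesteryl ester.

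The targeted gene was low in each A4KO library. ANGPTL4 stood at 74.9, 83.2, 86.9 and 71.7 TPM in the CAKi-1 WT libraries and 7.26, 2.87, 2.87, 6.47 and 2.90 TPM in the A4KO libraries. In the other line it stood at 20.6, 17.6 and 18.1 TPM in the 786O WT libraries and 2.19, 2.17 and 1.86 TPM in the A4KO libraries. The groups did not overlap in either line, and the log2 fold change, on the log2(TPM + 1) scale used throughout, was -3.96 ± 0.25 (SE) in CAKi-1 and -2.69 ± 0.074 (SE) in 786O (limma adjusted p = 1.2e-05 and 1.6e-06).

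The CAKi-1 A4KO libraries were not alike. Replicates 1 and 4 kept 7.26 and 6.47 TPM of ANGPTL4, more than replicates 2, 3 and 5. Over all expressed genes, the SD of the log2 difference was 0.178 between replicates 1 and 4, between 0.181 and 0.211 among replicates 2, 3 and 5, and between 0.34 and 0.402 across the 2 sets. CAKi-1 WT pairs gave 0.164 to 0.315 and pairs of 786O 0.165 to 0.175. Members of CAKi-1 whose sign or call changed without A4KO replicates 1 and 4 are given both ways. This split was read from these data and from no label. A p over replicates 2, 3 and 5 alone describes libraries picked by their values, so a call gained there is a description.

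The renal label was checked against markers. PAX8, the transcription factor of renal epithelium and its tumours, ran from 143 to 230.1 TPM over the CAKi-1 libraries, from 225 to 238 TPM in 786O WT and from 148 to 155 TPM in 786O A4KO. Of 8 renal and ccRCC markers, 6 were measured in CAKi-1 and 8 in 786O, and VIM was the most abundant in both, at 3220.5 and 4508 TPM on average in WT. In 786O 7 of the 8 passed as lower, VIM among them, and in CAKi-1 3 of the 6. Over all genes 33.5% passed as lower and 27.5% as higher in 786O, and 21.1% and 17.9% in CAKi-1. The epithelial keratin KRT8 ran from 1223 to 1702 TPM in CAKi-1 WT and from 265 to 566 TPM in CAKi-1 A4KO (log2 fold change -1.88, limma adjusted p = 3.2e-04). CA9, a hypoxia-induced enzyme that is a hallmark of ccRCC, was absent from the CAKi-1 table and was at 6.65, 7.86 and 8.10 TPM in the 786O WT libraries and 0.116, 0.469 and 0.277 TPM in the A4KO libraries. PAX2, a renal lineage factor also absent from the CAKi-1 table, went the other way, at 11.4, 11.4 and 10.6 TPM in the 786O WT libraries and 38.4, 44.1 and 40.4 TPM in the A4KO libraries (log2 fold change 1.78, limma adjusted p = 3.2e-06). Of 6 differentiated proximal tubule markers, 4 were measured in CAKi-1, where 1 passed as higher and 0 as lower. Of the 5 measured in 786O, 2 passed as higher and 1 as lower. GGT1, an enzyme of glutathione breakdown, was the most abundant and rose in both lines (0.54, 0.00761 and 0.72, 8.2e-05 by limma). AQP1 fell in 786O, from 0.817 to 0.268 TPM on average (-0.52, 0.00149 by limma). SLC34A1, measured in 786O alone, passed as higher at 0.18 (0.0370 by limma). LRP2, the endocytic receptor megalin, stayed near 0, at most 0.109 TPM. Of 6 leukocyte markers, 4 were measured in CAKi-1 and 3 in 786O, CD68 being the most abundant, and PTPRC, the marker of all leukocytes, reached at most 0.541 TPM. CD68, a lysosomal protein, fell by 1.06 in 786O (5.7e-06 by limma). Of 6 endothelial and fibroblast markers, 4 were measured in each line. PECAM1, an endothelial marker, ran from 1.54 to 6.17 TPM in CAKi-1 A4KO against 0.555 TPM at most in CAKi-1 WT, and stood at -0.46 on the log2 scale in 786O (0.0104 by limma). COL1A1, a collagen of fibroblasts, averaged 10.2 TPM in CAKi-1 WT and 36.2 TPM in CAKi-1 A4KO (log2 fold change 1.72, limma adjusted p = 1.4e-05). PDGFRB, a receptor of fibroblasts and pericytes, averaged 0.407 TPM in 786O WT and 4.69 TPM in 786O A4KO (1.998, 5.8e-05). COL1A1 did not pass in 786O (0.19, 0.39 by limma), and PDGFRB did not pass in CAKi-1 (0.35, 0.101). DCN, the other fibroblast marker measured, passed in neither CAKi-1 (0.21, 0.234) nor 786O (-0.13, 0.185).

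In CAKi-1, the fatty acid arm was lower in A4KO cells while most sterol genes did not pass. Of the 13 fatty acid genes, 10 fell and 0 rose at a limma adjusted p of at most 0.05, with a median log2 fold change of -0.44. Without WT replicate 1, or without WT replicate 2, 6 of them passed as lower. Of the 21 sterol genes, 6 fell and 1 rose, with a median of -0.15. SOAT1 fell, and of the 5 LXR efflux genes 1 fell. Over all genes of the line the median was -0.0078, 17.9% of genes passed as higher and 21.1% as lower. These shares are of the fit over all libraries of the line, and none is given for the fits without a library. Across the 40 members 1 passed as higher and 18 as lower. No member also reached an absolute log2 fold change of 1, against 3.33% of all genes.

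**Figure D1:**
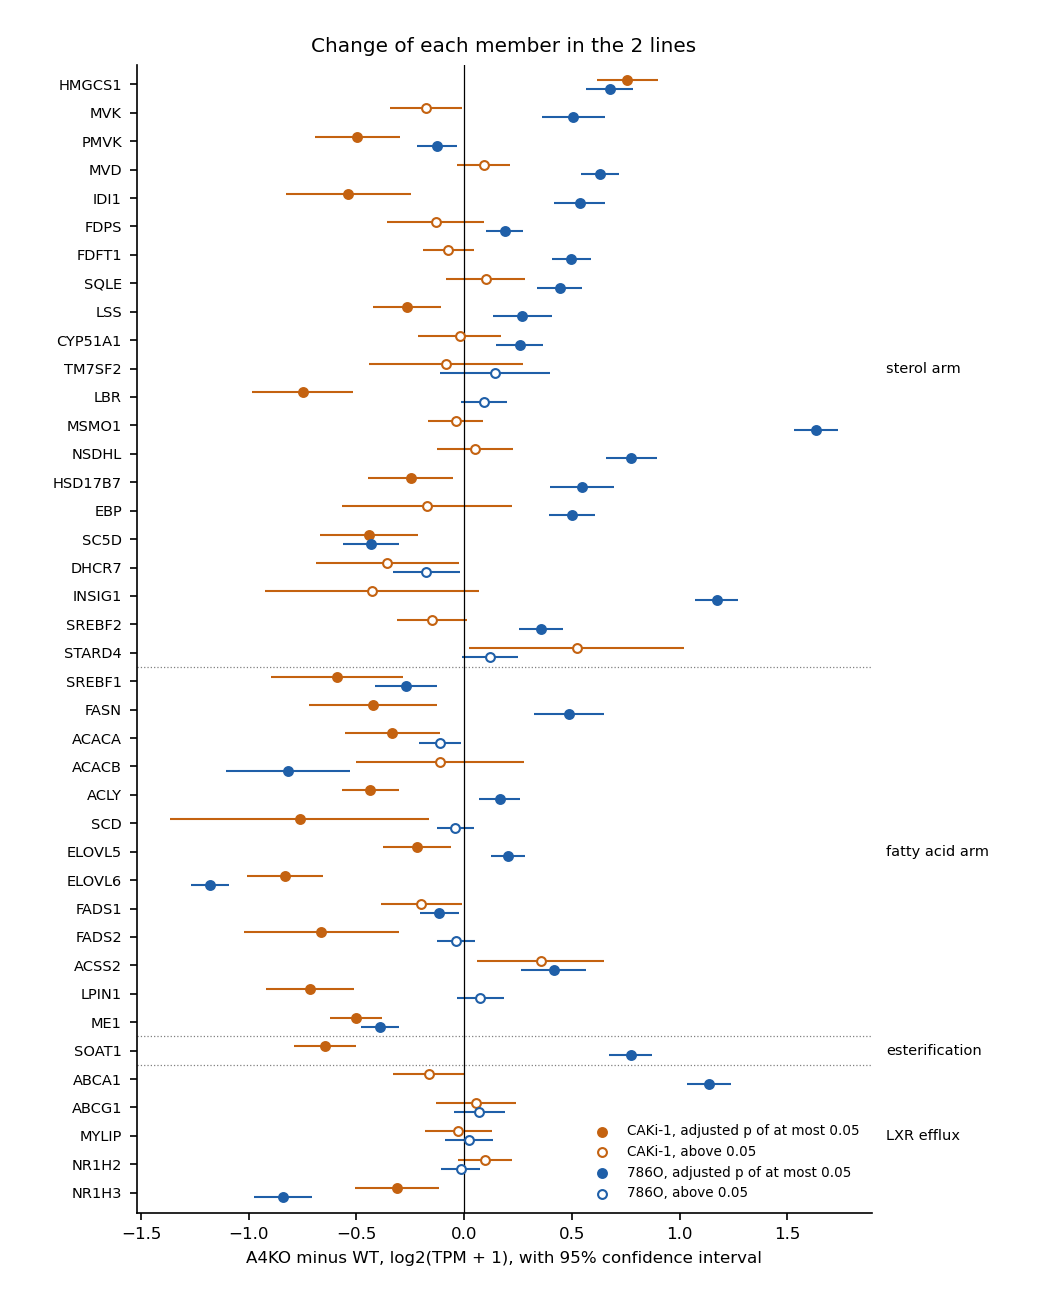
Log2 fold change of A4KO against WT on the log2(TPM + 1) scale for the 40 members, with 95% confidence intervals, in CAKi-1 (orange, 4 WT and 5 A4KO libraries) and 786O (blue, 3 and 3 libraries). Filled points passed a limma adjusted p of at most 0.05; the sterol arm lies mainly right of 0 in 786O, with MSMO1 at 1.63, and the fatty acid arm mainly left of 0 in CAKi-1, with ELOVL6 at -0.83.

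The 1 sterol gene that rose in CAKi-1 was HMGCS1, whose product condenses acetyl-CoA and acetoacetyl-CoA into the precursor of mevalonate. HMGCS1 was at 27.2, 29.1, 27.0 and 28.8 TPM in the CAKi-1 WT libraries and 42.8, 52.3, 48.5, 49.0 and 48.2 TPM in the A4KO libraries. Each A4KO library was above each WT library, at a log2 fold change of 0.76 ± 0.062 (SE) (limma adjusted p = 3.8e-05). An exact two-sided permutation test gave p = 0.0159, the smallest that 4 against 5 libraries allow.

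The sterol genes that fell sit at several steps of the route. PMVK, which adds the second phosphate to mevalonate, was at 88.7, 90.3, 79.0 and 83.6 TPM in the CAKi-1 WT libraries and 53.6, 62.9, 68.7, 52.9 and 64.1 TPM in the A4KO libraries. IDI1, which interconverts the isoprene units that all later steps use, was at 28.9, 30.6, 28.8 and 28.8 TPM in the CAKi-1 WT libraries and 15.8, 21.5, 24.3, 16.1 and 23.0 TPM in the A4KO libraries. The A4KO values were below the WT values for both, with log2 fold changes of -0.50 and -0.54 (limma adjusted p = 0.00217 and 0.00966), and IDI1 was lower in A4KO replicates 1 and 4 than in the other 3, over which it was at -0.34 (0.00224). LSS, the cyclase that closes the sterol rings, showed 23.9, 25.1, 22.4 and 26.7 TPM in the CAKi-1 WT libraries and 20.9, 20.6, 18.2, 21.9 and 19.5 TPM in the A4KO libraries. LBR, a sterol reductase that is also a receptor of the nuclear lamina, showed 76.8, 76.5, 75.4 and 67.9 TPM in the CAKi-1 WT libraries and 36.5, 47.4, 49.3, 37.8 and 48.9 TPM in the A4KO libraries. LBR had the largest fall of the sterol arm in CAKi-1, -0.75 ± 0.10 (SE) (limma adjusted p = 5.8e-04), while LSS fell by 0.27 (0.0146), both without overlap. SC5D, a desaturase near the end of the route, was at 23.2, 22.9, 19.5 and 19.0 TPM in the CAKi-1 WT libraries and 12.9, 14.0, 17.5, 17.0 and 15.1 TPM in the A4KO libraries. All 5 A4KO values were below the lowest WT value, with a log2 fold change of -0.44 (limma adjusted p = 0.00795). HSD17B7, a reductase in the removal of the sterol methyl groups, had overlapping groups and a log2 fold change of -0.25 at the edge of the threshold (limma adjusted p = 0.04997). It no longer passed over A4KO replicates 2, 3 and 5 (-0.24, 0.0826), nor when 1 of several libraries was left out, at 0.0996 without WT replicate 1, 0.131 without WT replicate 2, 0.0816 without WT replicate 3, 0.0984 without A4KO replicate 1, 0.0951 without A4KO replicate 2 and 0.0771 without A4KO replicate 5.

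Several sterol genes split the A4KO libraries. INSIG1, the retention factor that SREBP itself induces, was at 34.0, 35.8, 38.0 and 46.5 TPM in the CAKi-1 WT libraries and 19.7, 36.4, 37.5, 19.3 and 33.8 TPM in the A4KO libraries. Replicates 1 and 4 were low and the other 3 lay near the lower WT values, and the log2 fold change of -0.43 ± 0.22 (SE) did not pass (limma adjusted p = 0.154), and over replicates 2, 3 and 5 it was -0.090 (0.544). EBP, the sterol isomerase, was at 61.8, 62.5, 55.3 and 57.4 TPM in the CAKi-1 WT libraries and 37.9, 63.1, 65.2, 39.9 and 62.9 TPM in the A4KO libraries. DHCR7, which carries out the last reduction to cholesterol, was at 44.3, 47.1, 47.8 and 40.9 TPM in the CAKi-1 WT libraries and 26.4, 41.7, 43.4, 28.8 and 37.4 TPM in the A4KO libraries. FDPS, the farnesyl diphosphate synthase, was at 178, 176, 168 and 174 TPM in the CAKi-1 WT libraries and 133, 179, 171, 137 and 178 TPM in the A4KO libraries. In these 3 genes too the lowest values were those of replicates 1 and 4, and none passed over the 5 libraries. Over replicates 2, 3 and 5 the estimates were 0.10 for EBP against -0.17 over all 5, -0.14 for DHCR7 against -0.36, and 0.019 for FDPS against -0.13. STARD4, a carrier of cholesterol between membranes, went the other way, at 13.4, 12.5, 14.6 and 17.2 TPM in the CAKi-1 WT libraries and 27.6, 18.5, 14.4, 32.4 and 16.9 TPM in the A4KO libraries. Its log2 fold change of 0.52 ± 0.22 (SE) did not pass (limma adjusted p = 0.0911), and without replicates 1 and 4 it was 0.19 (0.245). Over replicates 2, 3 and 5, 3 sterol genes passed as higher and 6 as lower, with a median of -0.090. No share over all genes is given for this smaller set of libraries, so these counts have none beside them. Those higher were HMGCS1, MVD, the mevalonate decarboxylase, at 0.15 (0.0257) against 0.091 (0.215) over all 5, and SQLE, the squalene epoxidase, at 0.20 (0.0214) against 0.10 (0.364). Among those lower, TM7SF2, a sterol reductase at -0.33 (0.00584) against -0.084 (0.709) over all 5, took the place of HSD17B7. CYP51A1, the lanosterol demethylase, turned from -0.021 to 0.091 without passing.

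The remaining sterol genes of CAKi-1 did not pass over the 5 libraries. Their log2 fold changes ran from -0.18 for the mevalonate kinase MVK to 0.10 for SQLE. MSMO1, an oxidase that strips methyl groups from lanosterol products, was at 20.2, 21.5, 19.8 and 21.4 TPM in the CAKi-1 WT libraries and 19.1, 21.9, 21.0, 19.6 and 19.2 TPM in the A4KO libraries. The values of both groups overlapped, and the 95% confidence interval of the log2 fold change ran from -0.17 to 0.087. SREBF2 was at 27.0, 26.8, 27.3 and 30.4 TPM in the CAKi-1 WT libraries and 22.2, 28.4, 24.9, 24.9 and 25.04 TPM in the A4KO libraries, with a log2 fold change of -0.15 (limma adjusted p = 0.132).

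**Figure D2:**
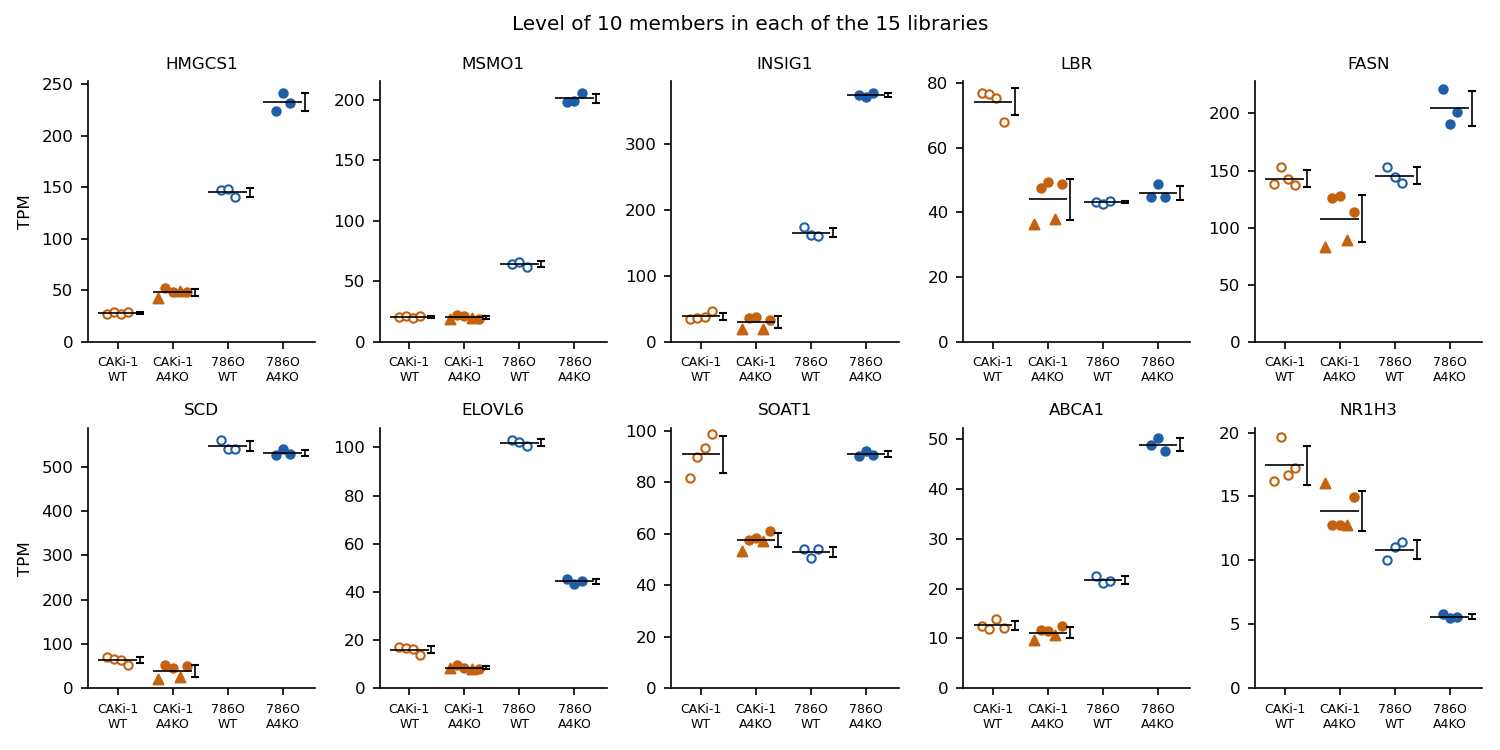
TPM of 10 members in each library, CAKi-1 in orange and 786O in blue, WT open and A4KO filled, with the group mean (line) and SD (bar); triangles mark CAKi-1 A4KO replicates 1 and 4. MSMO1 lies between 198 and 206 TPM in 786O A4KO and between 61.5 and 66.3 TPM in 786O WT, while SCD and INSIG1 are lowest in CAKi-1 A4KO replicates 1 and 4.

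In the fatty acid arm of CAKi-1 the falls ran from the regulator to the chain-modifying enzymes. SREBF1 itself was at 51.8, 47.1, 52.8 and 48.4 TPM in the CAKi-1 WT libraries and 24.8, 39.6, 34.1, 28.6 and 40.1 TPM in the A4KO libraries. The A4KO values were all lower, at a log2 fold change of -0.59 ± 0.14 (SE) (limma adjusted p = 0.00838). SREBF1 was lowest in replicates 1 and 4, and over replicates 2, 3 and 5 it was at -0.39 (0.00466). ACLY, which makes cytosolic acetyl-CoA from citrate, was at 291, 302, 269 and 256 TPM in the CAKi-1 WT libraries and 196, 208, 212, 202 and 212 TPM in the A4KO libraries. ACACA, which carboxylates acetyl-CoA to malonyl-CoA, was at 42.6, 44.9, 41.4 and 41.5 TPM in the CAKi-1 WT libraries and 28.1, 37.1, 37.0, 29.5 and 37.7 TPM in the A4KO libraries. FASN, the synthase that builds palmitate, was at 138, 153, 143 and 138 TPM in the CAKi-1 WT libraries and 83.2, 126, 128, 89.5 and 113 TPM in the A4KO libraries. No value of one group reached the range of the other in these 3 genes, and their log2 fold changes were -0.44, -0.33 and -0.42 (limma adjusted p = 5.2e-04, 0.0233 and 0.0312). FASN and ACACA were lowest in replicates 1 and 4, and over replicates 2, 3 and 5 they were at -0.22 (0.0261) and -0.19 (0.0135). With 1 library left out, FASN did not pass at 0.0589 without WT replicate 1, 0.0836 without WT replicate 2, 0.0674 without WT replicate 3, 0.0552 without WT replicate 4 and 0.0638 without A4KO replicate 4. ACACA did not pass at 0.0540 without WT replicate 1 and 0.0667 without WT replicate 2.

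SCD, ELOVL6, FADS2 and ELOVL5, members that desaturate or lengthen acyl chains, fell as well. SCD, which puts the first double bond into saturated acyl chains, was at 70.5, 66.1, 62.9 and 53.6 TPM in the CAKi-1 WT libraries and 20.8, 53.0, 45.6, 26.4 and 49.3 TPM in the A4KO libraries. ELOVL6, which lengthens saturated and monounsaturated chains, was at 17.0, 16.9, 16.5 and 13.9 TPM in the CAKi-1 WT libraries and 8.58, 9.84, 8.63, 8.04 and 7.87 TPM in the A4KO libraries. FADS2, the first desaturase of the polyunsaturated route, was at 32.0, 31.3, 32.4 and 28.6 TPM in the CAKi-1 WT libraries and 13.6, 25.1, 21.4, 15.98 and 22.3 TPM in the A4KO libraries. ELOVL6 was low to a like extent in all 5 A4KO libraries, at a log2 fold change of -0.83 ± 0.079 (SE) (limma adjusted p = 8.0e-05), whereas SCD and FADS2 were lowest in replicates 1 and 4. SCD fell by 0.76 with an SE of 0.27 (limma adjusted p = 0.0474), and by 0.35 over replicates 2, 3 and 5 (0.0265). FADS2 fell by 0.66 (0.0101), and by 0.42 over the same 3 replicates (0.00289). ELOVL5, an elongase of polyunsaturated chains, had a smaller log2 fold change of -0.22 (0.0340), and of -0.12 over those replicates (0.0467). With 1 library left out, SCD did not pass at 0.111 without WT replicate 1, 0.103 without WT replicate 2, 0.0938 without WT replicate 3, 0.0621 without WT replicate 4, 0.0617 without A4KO replicate 1 and 0.0964 without A4KO replicate 4. ELOVL5 did not pass at 0.0844 without WT replicate 1, 0.0763 without WT replicate 2, 0.0734 without WT replicate 3, 0.0547 without WT replicate 4, 0.0657 without A4KO replicate 1 and 0.0633 without A4KO replicate 4.

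LPIN1 and ME1 completed the falls of this arm. LPIN1, a phosphatidate phosphatase on the way to triglyceride, was at 15.4, 19.8, 19.2 and 17.9 TPM in the CAKi-1 WT libraries and 10.6, 11.4, 10.8, 8.92 and 11.3 TPM in the A4KO libraries. ME1, the malic enzyme that supplies NADPH for lipid synthesis, was at 39.4, 38.4, 35.7 and 40.9 TPM in the CAKi-1 WT libraries and 27.6, 27.2, 25.2, 27.1 and 27.7 TPM in the A4KO libraries. Both were lower in each A4KO library, LPIN1 most in replicates 4 and 1, at log2 fold changes of -0.72 ± 0.090 (SE) and -0.50 ± 0.054 (SE) (limma adjusted p = 3.6e-04 and 1.6e-04). The 3 fatty acid genes that did not pass were ACACB, the mitochondrial carboxylase, at -0.11, the desaturase FADS1 at -0.20, and ACSS2, which makes acetyl-CoA from acetate, at 0.36 (limma adjusted p = 0.644, 0.0865 and 0.0578). ACSS2 was the single fatty acid gene with a positive estimate, at 0.18 over replicates 2, 3 and 5. Over replicates 2, 3 and 5 the arm again had 10 genes lower and 0 higher, with a median of -0.35. This count too has no share over all genes of the same fit beside it.

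SOAT1, which esterifies cholesterol for storage in lipid droplets, was at 81.6, 89.8, 93.3 and 98.6 TPM in the CAKi-1 WT libraries and 53.5, 57.7, 58.1, 57.3 and 61.1 TPM in the A4KO libraries. It fell by 0.65 on the log2 scale, without overlap (SE 0.064, limma adjusted p = 1.1e-04). Of the efflux genes, NR1H3, which encodes LXR alpha, was at 16.2, 19.6, 16.7 and 17.2 TPM in the CAKi-1 WT libraries and 16.05, 12.8, 12.7, 12.8 and 14.9 TPM in the A4KO libraries. It was the 1 LXR gene that passed in CAKi-1, at -0.31 (limma adjusted p = 0.0187), with the lowest WT and the highest A4KO value close together, and it did not pass at 0.0568 without WT replicate 2. ABCA1, the exporter of cholesterol to lipid-poor apolipoprotein, was at 12.6, 12.0, 13.8 and 12.1 TPM in the CAKi-1 WT libraries and 9.67, 11.6, 11.4, 10.8 and 12.5 TPM in the A4KO libraries. These overlapped, and the log2 fold change of -0.16 did not pass (0.115). NR1H2, encoding LXR beta, and MYLIP, an LXR-induced ubiquitin ligase that lowers lipoprotein receptors, stood at 0.10 and -0.027. ABCG1, the exporter to mature lipoprotein particles, stayed below 0.4 TPM in each library of both lines and is read as barely expressed.

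In 786O the sterol arm was higher in A4KO cells, and the fatty acid arm was not shifted as a whole. Of the 21 sterol genes, 15 rose and 2 fell at a limma adjusted p of at most 0.05, with a median log2 fold change of 0.44. Of the 13 fatty acid genes, 4 rose and 5 fell, near the shares of all genes below, with a median of -0.041. SOAT1 and ABCA1 rose, and NR1H3 fell. Over all genes the median was -0.030, 27.5% passed as higher and 33.5% as lower, beside 21 and 8 of the 40 members. MSMO1, INSIG1, ABCA1 and ELOVL6, 4 of the 40, also reached an absolute log2 fold change of 1, against 7.62% of all genes. With the median shift of the nearest expressed genes, up to 50, subtracted, ABCA1 at 0.75 and ELOVL6 at -0.90 did not keep that size. ACACB then reached -1.03. With 3 against 3 libraries an exact permutation test cannot go below 0.1, so the limma adjusted p is given for this line. Groups without overlap are common here, 66.9% of all genes against 35.9% in CAKi-1.

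The largest rise was that of MSMO1. MSMO1 was at 64.6, 66.3 and 61.5 TPM in the 786O WT libraries and 198, 199 and 206 TPM in the A4KO libraries. The A4KO mean was 3.13 times the WT mean, and the log2 fold change was 1.63 ± 0.042 (SE) (limma adjusted p = 1.3e-06). INSIG1 was at 173, 163 and 161 TPM in the 786O WT libraries and 374, 371 and 377 TPM in the A4KO libraries. Each A4KO value was more than 2 times the highest WT value, at a log2 fold change of 1.17 ± 0.042 (SE) (3.8e-06).

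Of the 7 members from HMGCS1 to FDFT1, the steps up to squalene, 6 rose in 786O. HMGCS1 was at 147, 148 and 140.5 TPM in the 786O WT libraries and 224, 242 and 232 TPM in the A4KO libraries. MVD was at 108, 111 and 109 TPM in the 786O WT libraries and 174, 166 and 169 TPM in the A4KO libraries. MVK was at 24.5, 23.9 and 22.5 TPM in the 786O WT libraries and 31.6, 35.8 and 34.8 TPM in the A4KO libraries. All 3 rose without overlap, at log2 fold changes of 0.68, 0.63 and 0.51 (limma adjusted p = 4.0e-05, 2.1e-05 and 5.0e-04). With nearby genes subtracted they still passed, HMGCS1 at 0.74, MVD at 0.23 (0.00387) and MVK at 0.32 (0.00422). IDI1 was at 99.1, 107 and 100.3 TPM in the 786O WT libraries and 154, 142 and 149 TPM in the A4KO libraries, a rise of 0.54 (1.5e-04). FDFT1, the squalene synthase, was at 176, 173 and 169.8 TPM in the 786O WT libraries and 238, 248 and 247 TPM in the A4KO libraries, a rise of 0.50 (6.3e-05). FDPS rose by 0.19 (0.00409), the smallest rise among these. PMVK fell, at 66.6, 68.1 and 68.3 TPM in the 786O WT libraries and 60.9, 64.1 and 60.9 TPM in the A4KO libraries, a small log2 fold change of -0.12 (0.0282). It did not pass with 1 library left out, at 0.0779 without WT replicate 2, 0.0770 without WT replicate 3, 0.0854 without A4KO replicate 1 and 0.0811 without A4KO replicate 3.

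Past squalene the rises went on through most steps. SQLE was at 114, 106 and 108 TPM in the 786O WT libraries and 148, 145 and 152 TPM in the A4KO libraries. NSDHL, a dehydrogenase in the removal of the sterol methyl groups, was at 36.5, 37.9 and 34.4 TPM in the 786O WT libraries and 63.9, 63.6 and 60.9 TPM in the A4KO libraries. EBP was at 175, 174 and 181 TPM in the 786O WT libraries and 246, 243 and 263 TPM in the A4KO libraries. Each was higher in all A4KO libraries, by 0.44, 0.78 and 0.50 (limma adjusted p = 2.1e-04, 3.1e-05 and 1.3e-04). HSD17B7 rose by 0.55, LSS by 0.27, and CYP51A1 by 0.26. The regulator SREBF2 was at 85.6, 79.2 and 80.4 TPM in the 786O WT libraries and 104, 105 and 106 TPM in the A4KO libraries, a rise of 0.36 (4.9e-04).

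Some genes of the later steps did not rise in 786O. SC5D was at 48.5, 52.7 and 50.9 TPM in the 786O WT libraries and 36.1, 39.6 and 36.3 TPM in the A4KO libraries. It fell without overlap, at -0.43 ± 0.053 (SE) (limma adjusted p = 6.1e-04), but its neighbours in the genome were lower still, and with their shift taken off it stood at 0.19 (0.0258). DHCR7 was at 155, 153 and 160.3 TPM in the 786O WT libraries and 143, 146 and 126 TPM in the A4KO libraries. Its A4KO values were all lower, but the log2 fold change of -0.18 just missed the threshold (0.0541). TM7SF2 and LBR, the 2 reductases that act on the same sterol double bond, and STARD4 also did not pass, at 0.14, 0.091 and 0.12.

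Promoter sequences of the members that moved together were set beside these values. RefSeq promoters (GRCh38.p14, 250 bases before to 50 bases after the gene start) were given for 19 of the 21 sterol genes and 12 of the 13 fatty acid genes. They were searched on both strands for TCACNCCAC, a form of the sterol element that SREBP binds, for CCAAT, the box of NF-Y, a partner of SREBP, and for the LXR direct repeat, GGTNA and GGTCA separated by 5 bases. Shown are INSIG1 (chr7:155297628-155297927, plus strand), MSMO1 (chr4:165327419-165327718, plus strand) and MVD (chr16:88663042-88663341, minus strand), which rose in 786O, SREBF2 (chr22:41832855-41833154, plus strand), the gene of the factor itself, and ABCA1 (chr9:104928106-104928405, minus strand), the LXR target that rose. Capitals mark the matches, and CCAAT on the other strand is printed as its complement, read backwards.
INSIG1: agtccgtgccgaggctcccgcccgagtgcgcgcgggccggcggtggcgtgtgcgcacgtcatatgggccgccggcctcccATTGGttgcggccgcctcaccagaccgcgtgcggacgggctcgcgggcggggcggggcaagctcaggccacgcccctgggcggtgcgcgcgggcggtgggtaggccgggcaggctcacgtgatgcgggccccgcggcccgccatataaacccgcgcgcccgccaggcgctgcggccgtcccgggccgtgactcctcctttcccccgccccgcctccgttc
MSMO1: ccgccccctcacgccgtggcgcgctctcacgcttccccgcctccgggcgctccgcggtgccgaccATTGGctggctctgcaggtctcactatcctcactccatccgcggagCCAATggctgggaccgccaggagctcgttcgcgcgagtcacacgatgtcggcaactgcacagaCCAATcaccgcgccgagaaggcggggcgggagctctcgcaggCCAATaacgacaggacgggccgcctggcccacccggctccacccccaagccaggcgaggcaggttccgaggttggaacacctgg
MVD: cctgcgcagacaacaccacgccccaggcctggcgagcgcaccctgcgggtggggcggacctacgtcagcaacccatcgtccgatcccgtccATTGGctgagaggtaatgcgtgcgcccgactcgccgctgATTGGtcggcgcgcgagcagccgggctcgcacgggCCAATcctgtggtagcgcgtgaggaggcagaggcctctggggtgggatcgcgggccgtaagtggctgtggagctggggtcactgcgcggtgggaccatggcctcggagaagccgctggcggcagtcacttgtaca
SREBF2: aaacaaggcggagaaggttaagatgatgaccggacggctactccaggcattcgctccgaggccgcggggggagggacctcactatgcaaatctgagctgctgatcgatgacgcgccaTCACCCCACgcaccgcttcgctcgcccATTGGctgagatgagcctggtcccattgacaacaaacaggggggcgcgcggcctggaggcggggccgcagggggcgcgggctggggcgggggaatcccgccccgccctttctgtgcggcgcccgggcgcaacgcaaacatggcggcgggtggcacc
ABCA1: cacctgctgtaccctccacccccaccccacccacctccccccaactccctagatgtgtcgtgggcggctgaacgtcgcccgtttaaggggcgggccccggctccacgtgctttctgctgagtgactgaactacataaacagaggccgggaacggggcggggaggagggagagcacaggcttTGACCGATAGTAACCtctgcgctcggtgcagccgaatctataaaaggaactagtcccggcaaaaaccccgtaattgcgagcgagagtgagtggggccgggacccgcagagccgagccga

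MSMO1 carries CCAAT 4 times, first at -185 and last at -34 counted from the gene start as 0, MVD 3 times and INSIG1 once, at -170. NSDHL carries it 5 times, and 2 of those matches overlap each other on opposite strands. SREBF2 holds a single TCACNCCAC at -133 with a CCAAT at -106, the only sterol element of this spelling among the members' promoters. The ABCA1 promoter holds the LXR repeat at -69 on the minus strand of the gene and no CCAAT. The NF-Y box was present in 16 of the 19 sterol genes with a promoter and in 7 of the 12 fatty acid genes, against 42.9% of the 12766 measured genes with one. Per promoter the shares were 18 of 24 and 9 of 20, against 34.6% of all 35116 promoters, of which 1.13% held TCACNCCAC and 0.239% the LXR repeat. The sterol genes with an entry and no CCAAT in this window were PMVK, CYP51A1 and LBR. FDFT1, SQLE, FASN and ABCG1 had no entry. A match is a description of letters and was not tested for binding.

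**Figure D3:**
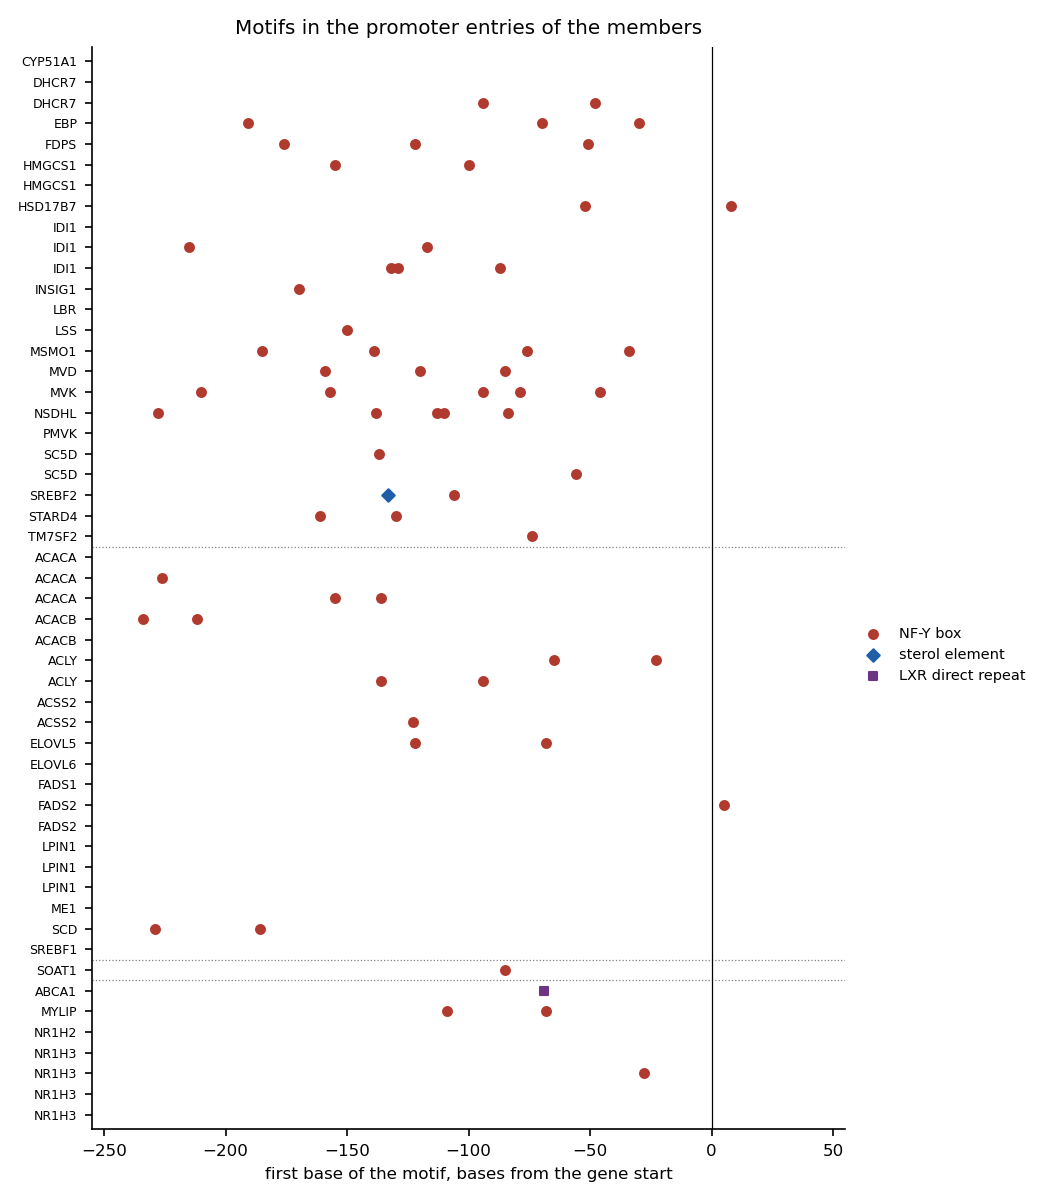
Position of each motif in the promoter entries of the members, in bases from the gene start (0), 1 line per entry, with sterol genes on top, then fatty acid genes, SOAT1 and LXR efflux genes. CCAAT (red) lies in 18 of 24 sterol entries and 9 of 20 fatty acid entries, and the sterol element (blue) and the LXR repeat (purple) in 1 entry each, SREBF2 and ABCA1.

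Within the fatty acid arm of 786O, genes moved in both directions. FASN was at 153, 144 and 139 TPM in the 786O WT libraries and 221, 191 and 202 TPM in the A4KO libraries. ELOVL5 was at 142, 141 and 138 TPM in the 786O WT libraries and 162, 161 and 162 TPM in the A4KO libraries. ACLY was at 213, 201 and 205 TPM in the 786O WT libraries and 228, 237 and 230.3 TPM in the A4KO libraries. These 3 rose without overlap, at 0.49, 0.21 and 0.17 (limma adjusted p = 0.00102, 0.00182 and 0.0106), and ACSS2 rose by 0.42 (0.00141). With the shift of nearby genes subtracted, ELOVL5 alone of these still passed as higher, and FASN stood at 0.14 (0.120), ACLY at -0.060 (0.252) and ACSS2 at 0.12 (0.150). Before that subtraction ELOVL6 had the largest fall of any member. It was at 103, 102 and 100.4 TPM in the 786O WT libraries and 45.4, 43.3 and 44.5 TPM in the A4KO libraries. The A4KO mean was 0.436 of the WT mean and the log2 fold change -1.18 ± 0.036 (SE) (2.1e-06). With nearby genes subtracted ACACB fell more, at -1.03 against -0.90 for ELOVL6.

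ACACB was at 5.81, 5.23 and 7.26 TPM in the 786O WT libraries and 3.20, 2.60 and 3.21 TPM in the A4KO libraries. ME1 was at 46.4, 45.2 and 44.8 TPM in the 786O WT libraries and 35.1, 33.5 and 34.8 TPM in the A4KO libraries. SREBF1 was at 109, 96.0 and 103 TPM in the 786O WT libraries and 80.9, 86.7 and 87.2 TPM in the A4KO libraries. All 3 fell without overlap, by 0.82, 0.39 and 0.27 on the log2 scale (limma adjusted p = 0.00124, 1.9e-04 and 0.00793). With the shift of their neighbours in the genome taken off, SREBF1 stood at 0.16 (0.0894) and ME1 at -0.10 (0.0631), and neither passed. SCD, the most abundant member of 786O, was at 561, 541 and 540.0 TPM in the 786O WT libraries and 527, 539 and 529 TPM in the A4KO libraries. Its groups did not overlap, but the log2 fold change of -0.041 was small and did not pass (0.357). FADS2, LPIN1 and ACACA did not pass, at -0.036, 0.074 and -0.11, and FADS1 passed at -0.12 (0.0346). With 1 library left out FADS1 did not pass, at 0.0693 without WT replicate 1, 0.0714 without WT replicate 2, 0.0925 without WT replicate 3, 0.105 without A4KO replicate 1 and 0.0890 without A4KO replicate 3.

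SOAT1 and ABCA1 both rose in 786O. SOAT1 was at 54.0, 50.6 and 53.9 TPM in the 786O WT libraries and 90.0, 92.2 and 90.5 TPM in the A4KO libraries. ABCA1 was at 22.6, 21.1 and 21.4 TPM in the 786O WT libraries and 48.9, 50.2 and 47.7 TPM in the A4KO libraries. The A4KO levels were 1.72 and 2.25 times the WT means, at log2 fold changes of 0.77 ± 0.040 (SE) and 1.14 ± 0.042 (SE) (limma adjusted p = 1.5e-05 and 4.5e-06). NR1H3 was at 10.0, 11.1 and 11.5 TPM in the 786O WT libraries and 5.80, 5.48 and 5.55 TPM in the A4KO libraries. The receptor gene fell by 0.84 (3.9e-05) while its known target ABCA1 rose, and NR1H2, the more abundant LXR gene at 69.5 ± 1.53 TPM (SD, n = 3) in WT and 68.7 ± 1.49 TPM (SD, n = 3) in A4KO, stood at -0.016. MYLIP stood at 0.023.

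Taken library by library, the sterol arm shifted alike in the A4KO libraries of 786O and unevenly in those of CAKi-1. The median deviation of the sterol arm from the WT mean, in log2 units, was 0.40, 0.41 and 0.48 in the 786O A4KO libraries and -0.31, 0.022, -0.041, -0.15 and -0.11 in those of CAKi-1. For the fatty acid arm it was -0.054, -0.021 and -0.063 in 786O A4KO and -0.58, -0.24, -0.39, -0.52 and -0.35 in CAKi-1 A4KO. The fatty acid arm was thus below each WT library in all 5 CAKi-1 A4KO libraries, most in replicates 1 and 4, and the sterol arm was near the WT level in replicates 2 and 3. Summed TPM of the sterol arm was 2140.1, 2122 and 2117 in 786O WT and 2959.9, 2994 and 2988 in 786O A4KO.

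**Figure D4:**
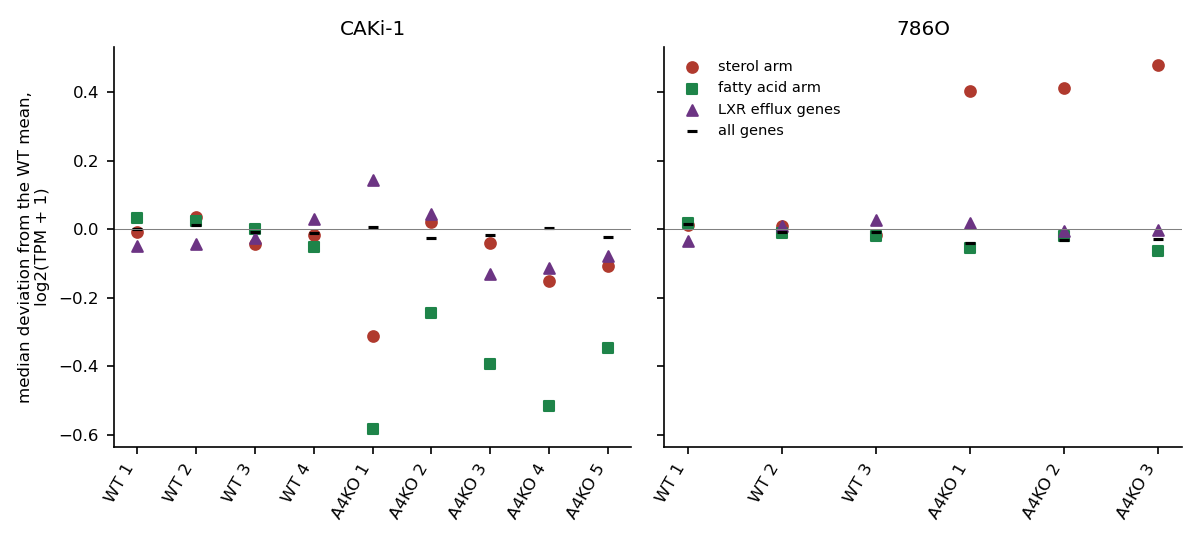
Median over the genes of each arm of the deviation from the line's WT mean, on the log2(TPM + 1) scale, in each library of CAKi-1 (left) and 786O (right); dashes mark the median of all genes. The sterol arm is above 0.4 in the 3 A4KO libraries of 786O, and the fatty acid arm lies below -0.2 in the 5 A4KO libraries of CAKi-1.

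Whether the knockout effect differed between the lines was tested as the 786O effect minus the CAKi-1 effect, over the 15247 genes in both tables. In the sterol arm, 14 of 21 genes passed as higher and 0 as lower, with a median difference of 0.54. EBP, among those higher, did not pass without 786O A4KO replicate 3, at 0.64 (limma adjusted p = 0.0517). In the fatty acid arm 5 of 13 passed as higher and 2 as lower, with a median of 0.32. Over all genes 26.3% passed as higher and 28.8% as lower, with a median of -0.029. Differences of at least 1 in size were found for MSMO1, INSIG1, SOAT1, ABCA1 and IDI1, 5 of the 40 members, against 12.8% of all genes. With the shift of nearby genes subtracted in each line, an alternative chosen after seeing the data, MSMO1 at 1.14, INSIG1 at 1.42 and SOAT1 at 1.10 kept that size, and ABCA1 at 0.81 and IDI1 at 0.78 did not, while ACACB reached -1.07.

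MSMO1 differed most among the members, by 1.67 ± 0.077 (SE, limma adjusted p = 8.7e-10). INSIG1 followed at 1.60 ± 0.29 (SE, 3.4e-04), with a wider error. SOAT1 differed by 1.42 (1.4e-08), falling in CAKi-1 and rising in 786O. ABCA1 differed by 1.30 (1.4e-07) and IDI1 by 1.07 (1.1e-04). HMGCS1 rose in both lines and its effects were not shown to differ, at -0.083 ± 0.085 (SE, 0.433). Neither were those of SC5D (0.0093, 0.962) and ME1 (0.11, 0.206), which fell in both. After the subtraction the differences of SC5D and ME1 were 0.51 and 0.51 and both passed. The 2 fatty acid genes with a lower effect in 786O were ELOVL6 (-0.35, 0.0110) and ACACB (-0.71, 0.0257). ACACB did not pass at 0.0747 without 786O WT replicate 3 and 0.0662 without 786O A4KO replicate 2, and ELOVL6 did not pass with nearby genes subtracted, at -0.19.

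Set side by side, 1 member, HMGCS1, passed as higher in both lines, where 4.95% of the genes in both tables did. Lower in both were 6 members, PMVK, SC5D, SREBF1, ELOVL6, ME1 and NR1H3, against 7.08% of genes. Of these 6, PMVK and ELOVL6 stayed lower in both lines with the shift of nearby genes subtracted. Lower in CAKi-1 and higher in 786O were 7, IDI1, LSS, HSD17B7, FASN, ACLY, ELOVL5 and SOAT1, against 8.33%. Of these 7, LSS, ELOVL5 and SOAT1 stayed so after that subtraction. None was higher in CAKi-1 and lower in 786O, where 7.65% of all genes were by the same limma fits.

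**Figure D5:**
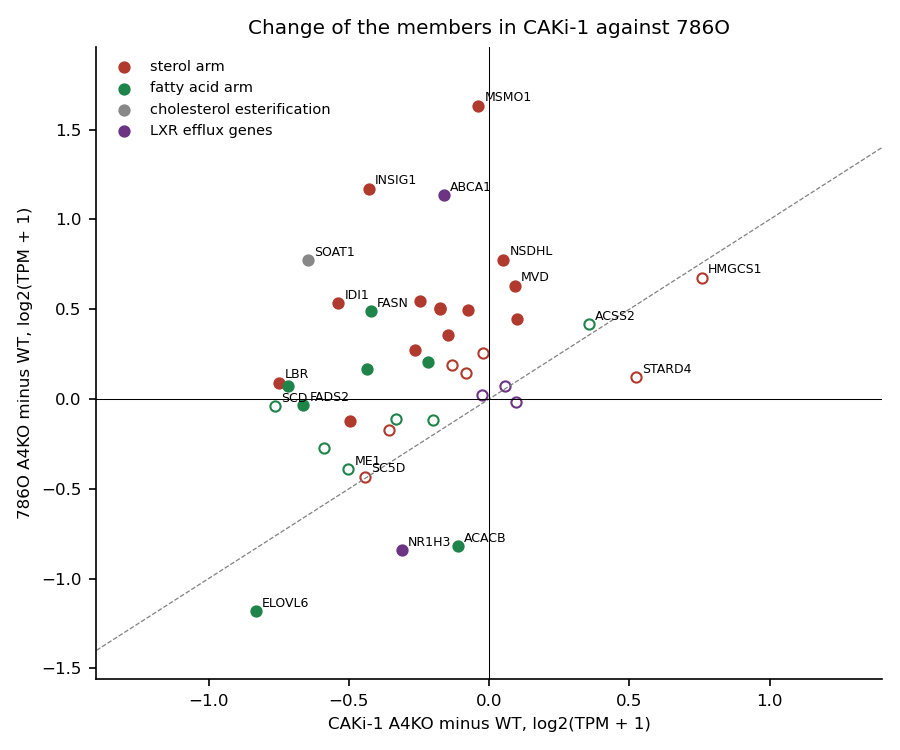
Log2 fold change of A4KO against WT in CAKi-1 (x axis) and 786O (y axis) for the 40 members, on the log2(TPM + 1) scale, coloured by arm; filled points passed the test of the difference between the lines and the dashed line marks equal effects. MSMO1 lies at -0.040 and 1.63, SOAT1 at -0.65 and 0.77, and ELOVL6 at -0.83 and -1.18.

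The lines started from different levels. In WT cells, 18 of the 21 sterol genes and 11 of the 13 fatty acid genes were higher in all 786O libraries than in all CAKi-1 libraries, compared with 42.2% of the genes in both tables. The tables were deposited separately, so these levels were set side by side and not tested. SCD averaged 63.3 ± 7.17 TPM (SD, n = 4) in CAKi-1 WT and 547 ± 11.8 TPM (SD, n = 3) in 786O WT. FADS2 averaged 31.1 ± 1.72 TPM (SD, n = 4) and 372 ± 4.56 TPM (SD, n = 3), and SOAT1 was the reverse, at 90.8 ± 7.13 TPM (SD, n = 4) and 52.8 ± 1.91 TPM (SD, n = 3).

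Some members lie in stretches of the genome where neighbouring genes shifted as well. For each member the nearest expressed genes, up to 25 on either flank, gave a median shift to set beside its own change. Near a chromosome end the outer flank holds fewer, so the set is smaller and one-sided there. SC5D (chr11:121292681-121313410) lies among genes that were lower in 786O A4KO by 0.62 on the log2 scale, more than SC5D itself. The neighbours of SREBF1 were shifted by -0.43, more than SREBF1. Those of MSMO1 were shifted by 0.48, of MVD by 0.40, of ABCA1 by 0.38 and of FASN by 0.35. With these taken off, MSMO1 stood at 1.15, MVD at 0.23, ABCA1 at 0.75 and FASN at 0.14, of which FASN no longer passed (0.120). The calls of ACLY and ACSS2, given above, and of FADS1 at -0.068 (0.178) ended as well. For INSIG1 the shift was 0.11, for HMGCS1 -0.064 and for SOAT1 0.082. These 3 shifts are of 786O. In CAKi-1 they were -0.063 for INSIG1, 0.19 for HMGCS1 and -0.24 for SOAT1, which left HMGCS1 at 0.57 and SOAT1 at -0.41, and PMVK went from -0.50 to -0.28. In the same line, IDI1 at -0.27 (0.0918), HSD17B7 at -0.033 (0.786), SCD at -0.56 (0.129) and NR1H3 at -0.10 (0.365) no longer passed with the shift taken off. MVD at 0.40 (4.9e-04), STARD4 at 0.56 (0.0494) and ACSS2 at 0.38 (0.0265) passed as higher there. In 786O, TM7SF2, LBR, STARD4, MYLIP and NR1H2 came to pass as higher, and ACACA and SCD as lower. Copy number was not measured here, and its part in these shifts was not tested.

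Related genes of the pathway were counted from lists, beside shares over all genes of 17.9% higher and 21.1% lower in CAKi-1 and 27.5% and 33.5% in 786O. Of 5 SREBP processing genes, 2 rose and 1 fell in CAKi-1, and 4 rose and 1 fell in 786O. Of 10 genes of the isoprenoid branch, 2 rose and 4 fell in CAKi-1, and 4 rose and 4 fell in 786O. Of 17 genes of acetyl-CoA supply and acyl chain activation or elongation, 3 rose and 6 fell in CAKi-1, and of the 16 present in 786O 7 rose and 4 fell. Of 6 LXR partners and other LXR response genes, 2 rose and 1 fell in CAKi-1, and 4 rose and 1 fell in 786O. Of 12 genes of sterol transport between membranes, 3 rose and 1 fell in CAKi-1, and 5 rose and 4 fell in 786O.

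The related genes that passed with a log2 fold change of 1 or more in size were ACSL4, ACSL5, SCD5 and SCARB1. SCD5, a second stearoyl-CoA desaturase, was at 6.95, 7.24 and 7.24 TPM in the 786O WT libraries and 0.298, 0.527 and 0.393 TPM in the A4KO libraries. It fell by 2.54 (1.2e-06 by limma) in the line where SCD did not pass. SCARB1, the receptor for selective uptake of cholesteryl ester, was at 46.6, 44.3 and 43.97 TPM in the 786O WT libraries and 127, 129 and 126 TPM in the A4KO libraries, a rise of 1.48 (1.3e-06). ACSL5, an acyl-CoA synthetase, was at 12.9, 11.9, 13.3 and 14.8 TPM in the CAKi-1 WT libraries and 6.37, 5.81, 5.87, 6.55 and 5.79 TPM in the A4KO libraries. It fell by 1.004 in CAKi-1 (limma adjusted p = 1.5e-05) and rose by 0.84 in 786O (2.1e-04). ACSL4, which activates arachidonate, was at 81.3, 87.6, 94.8 and 125 TPM in the CAKi-1 WT libraries and 428, 173, 149, 419 and 155 TPM in the A4KO libraries. Replicates 1 and 4 were far above the other 3, and its rise of 1.28 (0.0194) was 0.72 without them (0.00665). ACSL4 did not pass at 0.0541 without WT replicate 1 and 0.0521 without WT replicate 2.

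LIPA, the lysosomal acid lipase that frees cholesterol from its esters, was at 25.1, 24.3, 23.9 and 21.1 TPM in the CAKi-1 WT libraries and 33.3, 33.0, 33.8, 33.9 and 33.2 TPM in the A4KO libraries. The CAKi-1 A4KO libraries were all higher, by 0.49 (limma adjusted p = 2.1e-04). In 786O it was at 104, 104 and 95.8 TPM in the 786O WT libraries and 91.9, 93.0 and 92.4 TPM in the A4KO libraries, a small log2 fold change of -0.13 (0.0436). It did not pass with 1 library left out, at 0.114 without WT replicate 1, 0.127 without WT replicate 2, 0.106 without A4KO replicate 1, 0.0900 without A4KO replicate 2 and 0.0959 without A4KO replicate 3. With nearby genes subtracted LIPA stood at 0.74 in CAKi-1 (3.8e-05) and at -0.21 in 786O (0.0058). Several members have pseudogene copies elsewhere in the genome, FDPS and HSD17B7 among them. How reads of such copies were assigned is not given in the sources used here.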

How the data were processed

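The deposited values are gene levels in TPM, a unit read from the values themselves, in 1 table per line. The submitters' processing notes name kallisto and hg38. How transcripts became genes and how genes were chosen for the tables is not given in the sources used here, and the depth reached per library cannot be recovered from TPM. Libraries were grouped by their labels. On log2(TPM + 1), A4KO was set against WT within each line with limma 3.58.1 (lmFit and eBayes, two-sided) in R 4.3.3, unfiltered, and p-values were adjusted by Benjamini-Hochberg across every gene of that line. A p called adjusted, or given in parentheses after a log2 fold change, is from limma. A gene passed at an adjusted p of at most 0.05. The difference between lines was a limma interaction term over the 15247 genes in both tables. Exact permutation tests were two-sided over the 126 arrangements of 4 against 5 libraries. Fold changes on this scale understate the change of low genes. The fits were tested on simulated data.

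The members and lists were chosen with earlier results of these data known, so lists are described by counts and medians and not tested. Genes named are the 40 members, ANGPTL4, LIPA, markers, and those related genes that passed with a log2 fold change of 1 or more in size in either line. Symbols matched GENCODE release 44, used for positions on hg38, for 16290 CAKi-1 and 16185 786O genes. Promoters are from RefSeq (GRCh38.p14), matched by symbol. Tables were made with Python 3.11.15, pandas 2.3.3 and numpy 2.4.6. Alternatives were trend and robust moderation, quantile normalization, median-ratio rescaling, a mean TPM of at least 1, a pseudocount of 0.1, the replicate number as a block, 1 fit over all 15 libraries, values centred on neighbouring genes, CAKi-1 A4KO replicates 2, 3 and 5 alone, and each library left out in turn.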

Additional observations from a re-analysis of the deposited data

Results flagged for a closer look

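Single libraries stood apart from the others of their group, by the gap to the nearest value over the range of the group, for 6 of the 92 groups of 4 or 5 libraries tested, where chance gives about 1 in 20. Only CAKi-1 has groups of this size, so 786O was not tested. IDI1 was high in WT replicate 2, at 30.65 TPM. WT replicate 4 was low for LBR, at 67.92 TPM, and for ELOVL6, at 13.95 TPM, and high for SREBF2, at 30.42 TPM, and for ABCG1, at 0.278 TPM. ME1 was low in A4KO replicate 3, at 25.19 TPM.

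The limma interaction term passed, with a size of 1 or more on the log2 scale, for 5 of the 40 members, against 12.8% of all genes, given as the 786O effect minus the CAKi-1 effect. They were MSMO1 at 1.67, INSIG1 at 1.60, SOAT1 at 1.42, ABCA1 at 1.2995 and IDI1 at 1.07. ANGPTL4 differed by 1.27, with its fall larger in CAKi-1. Of the 4 related genes named, each chosen for a log2 fold change of 1 or more in size, ACSL5 differed by 1.85, SCARB1 by 1.39 and SCD5 by -2.64. Among the other related genes, 1 gene of the isoprenoid branch and 1 of sterol transport also passed at this size.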

How the results depend on the processing

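Counts of members that passed moved under several settings. In the CAKi-1 sterol arm 1 gene was higher, and 2 were with 1 fit over all 15 libraries, 3 with values centred on neighbouring genes, 3 with A4KO replicates 2, 3 and 5 alone, and 1 to 2 with 1 library left out. In the CAKi-1 fatty acid arm none was higher, and 1 was under quantile normalization, median-ratio rescaling, a mean TPM of at least 1, 1 fit over all libraries and neighbour-centred values, with 0 to 1 when a library was left out. The number lower there, 10, went from 6 to 10 with a library left out, and the median log2 fold change, -0.44, was -0.34 under quantile normalization. The number lower was 8 under quantile normalization, median-ratio rescaling and a pseudocount of 0.1. It was 9 with neighbour-centred values and 11 with 1 fit over all 15 libraries. Over all 16296 genes of CAKi-1, 2916 passed as higher and 3432 as lower in the main fit. Quantile normalization gave 2947 and 3287, and median-ratio rescaling 3256 and 3082. With a mean TPM of at least 1, 2656 and 3249 of 12742 genes passed. The other counts of members in this section are given without the count over all genes.

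In the 786O sterol arm 2 genes were lower, and 1 was under median-ratio rescaling, 1 fit over all libraries and neighbour-centred values, with 1 to 3 when a library was left out. Under trend and robust moderation, and under quantile normalization, 3 were lower. The median of this arm, 0.44, was 0.36 with neighbour-centred values. In the 786O fatty acid arm the 4 genes higher became 1 with neighbour-centred values, and the 5 lower became 3 with 1 fit over all libraries. The LXR median in 786O, 0.023, was 0.0996 under quantile normalization and 0.30 with neighbour-centred values. For the difference between lines, the 2 fatty acid genes lower became 1 under quantile normalization and neighbour-centred values, and 1 to 2 with a library left out. The fatty acid median was then 0.46 with neighbour-centred values, and the LXR median 0.33.

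Of the members that passed before or after, signs turned with neighbour-centred values in 786O for SC5D at 0.19, SREBF1 at 0.16, ACLY at -0.060 and NR1H2 at 0.33, and in the difference between lines for MVD at -0.17 and NR1H2 at 0.39. The cause was not tested. Applying neighbour-centred values, or replicates 2, 3 and 5 alone, to the difference between lines was chosen after seeing the data. The split that sets these replicates apart within CAKi-1 was itself read from these data.

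With the replicate number as a block, 2 CAKi-1 sterol genes and 1 fatty acid gene were higher, and 4 sterol genes and no LXR gene were lower, against 6 and 1 before. In 786O under the block 1 sterol gene and 4 fatty acid genes were lower. Pairing by number was checked by correlating the deviations of WT and A4KO libraries of the same number. The correlations were -0.0621, 0.121, -0.037 and 0.135 in CAKi-1 and -0.046, 0.0197 and 0.00775 in 786O. Libraries of different number gave -0.182 to 0.177 in CAKi-1 and -0.0487 to 0.0406 in 786O. The values of the same number lay within these ranges, and so few of them cannot show whether the numbers mark pairs.

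Single-gene values under all settings were compared by call and sign, not by size. The same means that the call stood, weaker that it was lost, and stronger that one was gained. Sizes could differ within the same call, as for MVD in 786O at 0.63 and, with neighbour-centred values, 0.23. By this rule, 760 of 827 were the same in CAKi-1, with 45 weaker and 22 stronger. In 786O 590 of 643 were the same, with 31 weaker, 18 stronger and 4 of opposite sign. For the difference between lines 1020 of 1057 were the same, with 7 weaker, 28 stronger and 2 of opposite sign.

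The limits are few libraries of unknown independence, A4KO cells of both lines grown from selected clones, and a unit of shares. In 786O the WT and A4KO groups hold different clones. In a unit of shares a rise of abundant genes lowers the rest. Leaving out a library of 786O left 2 in its group. RNA levels say nothing of enzyme activity, SREBP processing or cholesterol content, and the deposited files hold no such values.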
